A study of Mus musculus with 2 samples.

Results

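The genes described here are 32 that encode proteins made chiefly by the liver and, with 1 exception, secreted into plasma. They were measured in dissected ureters of mouse embryos, among 23419 genes kept. The ureter drains the kidney into the bladder. The 32 genes were chosen by name and by the signals and ratios of these same arrays. Their ratios are therefore given as a description, with no test of the group. Each gene is represented by its brightest probe, and all 32 probes were well above background in all 4 RNAs.

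Total RNA came from ureters of the NMRI strain at stage E18.5 and was hybridised to 2 Agilent 2-colour arrays, each of which set RNA labelled Tbx2/Tbx3cDKO against control RNA of the same sex. Per the labels, cDKO embryos were Tbx18(cre/+) and carried Tbx2(fl/fl) together with Tbx3(fl/fl). Controls were Tbx18(+/+), without Cre, and carried Tbx2(fl/?) together with Tbx3(fl/?), where the second allele is not given. The Cre allele sits in Tbx18, a gene of the mesenchyme that surrounds the ureteric epithelium, so cDKO embryos also had 1 Tbx18 allele that carried Cre. The female array held cDKO RNA in AlexaFluor555 (green) and control RNA in AlexaFluor647 (red), and the male array held cDKO RNA in red and control RNA in green. Sex, dye orientation and replicate number therefore cannot be told apart, and each array is 1 measurement. How many embryos were pooled in an RNA is not given in the sources used here.

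Of 43020 gene spots, 72.1% to 81.6% per channel exceeded background clearly, and 1 was saturated. The 8 smooth muscle and 8 urothelial markers checked were well above background in all 4 RNAs. Against the labels, Tbx2, Tbx3 and Tbx18 were not lower in RNA labelled cDKO. Their mean log2 ratios were 0.74, 0.67 and 0.81, with adjusted p = 0.0273, 0.0305 and 0.00779 (limma). The labels do not place these probes relative to the floxed exons or the Cre insertion. The female cDKO RNA went against its label in part. The Y-linked Ddx3y had a signal of 360 in female cDKO RNA and was not well above background in female control RNA, and Eif2s3y had 491 in female cDKO RNA and was likewise not well above background in female control RNA. In male RNA these probes gave 2851 and 5159 in cDKO, against 4236 and 6739 in control. Kdm5d and Uty, also Y-linked, stayed near background in both female RNAs. Their probes were dim in male RNA too, with 75 and 118 in cDKO, against 82 and 207 in control. These dim probes therefore do not decide whether the label of the female cDKO RNA holds. Xist, the transcript that silences an X chromosome in female cells, gave 1212 in female cDKO and 1146 in female control RNA and was not well above background in either male RNA. The female cDKO RNA thus stood apart, and ratios below are given by array.

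As background, hepatocytes secrete most plasma proteins, and the fetal liver begins to do so well before birth. These proteins include carriers such as albumin, the apolipoproteins of lipoprotein particles, the factors and inhibitors of blood clotting, and protease inhibitors. Their genes are among the most abundantly transcribed of that cell type, and the transcription factors HNF1, HNF4, C/EBP and FOXA are known to act at many of their promoters. Some of them, such as transferrin, apolipoprotein C1 and transthyretin, are also made in other tissues.

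On the female array, 23 of the 32 transcripts were at least 2-fold higher in RNA labelled cDKO than in control RNA, where 1.28% of all genes were. Of these, 18 were at least 4-fold higher, where 77 of the 23419 genes were, and 7 at least 8-fold higher, where 15 were. The median log2 ratio of the 32 was 2.28, against 0.02 over all genes. On the male array none was at least 2-fold higher (all genes, 1.19%), and the median was -0.30, against 0.00 over all genes. Each array had 1 transcript at least 2-fold lower in cDKO RNA, Serpina6 on the female array (all genes, 1.17%) and Itih3 on the male array (all genes, 1.37%). A log2 ratio here is labelled cDKO over control after background correction and loess normalization, so 1 is a 2-fold difference. Since the genes were chosen on these ratios, nothing is read from these shares about the genotype. In bulk RNA of this kind, more cells of a type and more RNA per cell cannot be told apart.

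**Figure D1:**
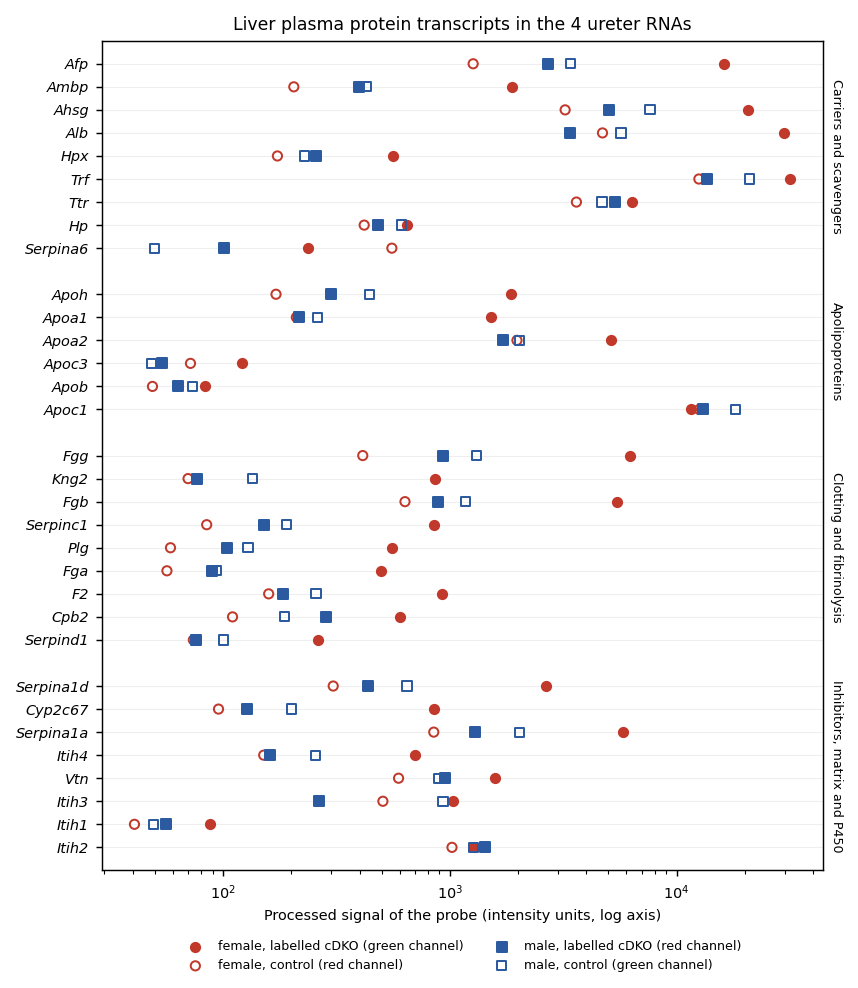
Processed signal (intensity units, log axis) of the 32 transcripts in the 4 ureter RNAs, grouped by role and ordered within a role by the female ratio. Filled symbols are RNA labelled cDKO and open symbols control RNA, with circles for the female and squares for the male array; each point is 1 RNA with no error bar. The filled circles of female cDKO RNA lie to the right of the other 3 for most transcripts, from Afp and Fgg down to Vtn, and Serpina6, Apoc1 and Itih2 are the exceptions.

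Albumin, the main carrier protein of plasma, had a signal of 29720 in female cDKO RNA, against 4711 in female control RNA. In male RNA, Alb had 3395 in cDKO, against 5685 in control. The cDKO RNAs were thus the highest and the lowest of the 4, with the controls between them. The log2 ratio of Alb was 2.68 on the female array and -0.78 on the male array. Alpha-fetoprotein, the fetal relative of albumin and its neighbour on chromosome 5, had 16119 in female cDKO RNA, against 1267 in female control RNA. In male RNA, Afp had 2711 in cDKO, against 3407 in control. Its 10 replicate spots gave log2 ratios of 3.65 on the female and -0.33 on the male array, with SDs between spots of 0.04 and 0.07. With median centring in place of loess, the male ratio of Afp was 0.08. On mm9 the probes lie at chr5:90901598-90901657 (Alb) and chr5:90937781-90937840 (Afp), both on the + strand.

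The sequences below are shown because albumin and alpha-fetoprotein are the best known transcripts of the group and had ratios of the same sign on each array. They are the 250 bases before the annotated start (RefSeq, GRCm38.p6, + strand), at chr5:90460620-90460869 for Alb and chr5:90490464-90490713 for Afp. Capitals mark matches to GTTAATNAT, TTGCNNAA and TGTTTGC on either strand, letter patterns close to the known preferences of HNF1, C/EBP and FOXA.
Alb: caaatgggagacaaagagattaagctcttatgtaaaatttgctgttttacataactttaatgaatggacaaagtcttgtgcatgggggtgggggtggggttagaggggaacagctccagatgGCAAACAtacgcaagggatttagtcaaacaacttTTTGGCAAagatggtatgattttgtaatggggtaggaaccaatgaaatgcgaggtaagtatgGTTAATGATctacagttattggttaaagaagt
Afp: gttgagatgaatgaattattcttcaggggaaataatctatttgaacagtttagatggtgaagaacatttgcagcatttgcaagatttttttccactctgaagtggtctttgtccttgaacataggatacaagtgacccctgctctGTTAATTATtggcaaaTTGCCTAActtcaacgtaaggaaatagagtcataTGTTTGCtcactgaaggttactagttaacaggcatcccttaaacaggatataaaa

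Windows of 300 bases (250 before and 50 after the start) were at hand for 25 of the 32 genes, 26 windows in all. Apoc1, Apoc3, Hp, Plg, Serpina6, Trf and Ttr had none. Searched on both strands, TTGCNNAA was present in 15 of the 26 windows (57.7%), against 10.8% of the 32851 windows of all genes. TGTTTGC was present in 9 (34.6%), against 5.07%. GTTAATNAT was present in 3 (11.5%), those of Afp, Alb and Fga, against 0.801%. CAAAGTC, close to part of the HNF4 preference, was present in 5 (19.2%), against 4.44%. TATAAA was present in 7 (26.9%), against 13.6%, and TGTTTAC, a second FOXA form, in 2 (7.69%), against 3.65%. The patterns were settled after windows had been searched, and a match is a description of letters.

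The remaining carriers differed between the arrays in several ways, most of them in sign and Hpx and Ttr in size alone. Ahsg (fetuin-A, a mineral-binding glycoprotein) had 20719 in female cDKO RNA, against 3224 in female control RNA, and 5030 in male cDKO RNA, against 7637 in male control RNA. Ambp, the precursor of alpha-1-microglobulin and bikunin, had 1871 in female cDKO RNA, against 205 in female control RNA, and 397 in male cDKO RNA, against 427 in male control RNA. Female cDKO RNA was the highest and female control RNA the lowest of the 4 for both, with 6.55-fold and 8.02-fold higher levels in cDKO RNA on the female array and log2 ratios of -0.54 and -0.20 on the male array. Trf (transferrin, the iron carrier) was bright in every RNA. It had 31606 in female cDKO RNA, against 12532 in female control RNA, and 13592 in male cDKO RNA, against 20899 in male control RNA, for ratios of 1.35 and -0.57.

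Hpx (hemopexin, which binds free haem) had 563 in female cDKO RNA, against 174 in female control RNA, and 258 in male cDKO RNA, against 229 in male control RNA. It was higher in cDKO RNA on both arrays, by 1.58 on the female and 0.21 on the male array. Ttr (transthyretin, a thyroid hormone and retinol carrier) differed less, by 0.80 on the female and 0.23 on the male array. Hp (haptoglobin, which binds free haemoglobin) had a ratio of 0.58 on the female array and -0.29 on the male array. Serpina6, the corticosteroid-binding globulin, ran the other way. It had 236 in female cDKO RNA, against 555 in female control RNA, and 101 in male cDKO RNA, against 50 in male control RNA, for log2 ratios of -1.14 and 0.41. A second Serpina6 probe gave -1.26 on the female and 0.55 on the male array.

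Among the 6 apolipoproteins and related lipid-binding proteins, 3 were at least 2-fold higher in female cDKO RNA. Apoh, a phospholipid-binding plasma glycoprotein, had 1870 in female cDKO RNA, against 171 in female control RNA, and 298 in male cDKO RNA, against 443 in male control RNA. Apoa1, the main protein of high-density lipoprotein, had 1521 in female cDKO RNA, against 210 in female control RNA, and 216 in male cDKO RNA, against 261 in male control RNA. Over its 9 spots the log2 ratio of Apoa1 was 2.70 on the female array (SD between spots 0.04) and -0.18 on the male array (0.04). Apoa2, a second protein of that particle, had a ratio of 1.35 by its brightest probe and 2.44 by its other probe on the female array, and -0.31 and -0.47 by the same probes on the male array.

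The other 3 of that group were less than 2-fold different by their brightest probes. Apoc1, an activator of lecithin-cholesterol acyltransferase, had 11608 in female cDKO RNA, against 12574 in female control RNA, and 13110 in male cDKO RNA, against 18158 in male control RNA. Its ratio was -0.08 on the female and -0.53 on the male array, so this transcript was not higher in cDKO RNA on either. With median centring the male ratio of Apoc1 was 0.05, and that of Apoa2 was 0.05. Apob, the structural protein of low-density lipoprotein, had ratios of 0.52 and -0.09 on the female and male array by its brightest probe. A dimmer Apob probe had 178 in female cDKO RNA and was not well above background in female control RNA or in male cDKO RNA. The mean over both probes was 1.55 on the female array. Apoc3, an inhibitor of lipoprotein lipase, had 0.55 and 0.07, and its second probe 0.04 and 0.05. The Apoc3 and Apoa1 probes lie close together, at chr9:46041134-46041193 and chr9:46037921-46037980 on mm9, yet the female ratios of these neighbours were 0.55 and 2.70.

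All 9 transcripts of clotting and fibrinolysis were at least 2-fold higher in female cDKO RNA, with a median log2 ratio of 2.76, and 8 of the 9 were below 0 on the male array, with a median of -0.27. Fibrinogen, which forms the clot, is built of 3 chains whose genes lie side by side on chromosome 3. Fgg, its gamma chain, had 6214 in female cDKO RNA, against 413 in female control RNA, and 929 in male cDKO RNA, against 1310 in male control RNA. Fgb, the beta chain, had 5462 in female cDKO RNA, against 634 in female control RNA, and 886 in male cDKO RNA, against 1170 in male control RNA. Fga, the alpha chain, had 499 in female cDKO RNA, against 56.6 in female control RNA, and 89.6 in male cDKO RNA, against 93.7 in male control RNA. The female ratios were 14.2-fold for Fgg, the highest of the 32, 8.24-fold for Fgb and 6.54-fold for Fga, and the male log2 ratios were -0.44, -0.45 and -0.04. On mm9 the probes lie at chr3:82818825-82818884 (Fgg), chr3:82835678-82835737 (Fga) and chr3:82846334-82846393 (Fgb).

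Kng2, a kininogen from which bradykinin is cut, had 861 in female cDKO RNA, against 70.1 in female control RNA, and 76.4 in male cDKO RNA, against 135 in male control RNA. Serpinc1 (antithrombin) had 850 in female cDKO RNA, against 84.7 in female control RNA, and 152 in male cDKO RNA, against 191 in male control RNA. Plg (plasminogen, which dissolves clots) had 554 in female cDKO RNA, against 58.6 in female control RNA, and 105 in male cDKO RNA, against 129 in male control RNA. In each of these, female cDKO RNA stood well above the other 3 RNAs and male control RNA lay above male cDKO RNA. F2 (prothrombin) and Serpind1 (heparin cofactor II) had female ratios of 2.36 and 1.58 and male ratios of -0.32 and -0.24. Cpb2, a carboxypeptidase that slows fibrinolysis, was the 1 transcript of this role above 0 on both arrays. It had 603 in female cDKO RNA, against 110 in female control RNA, and 284 in male cDKO RNA, against 187 in male control RNA, for ratios of 2.19 and 0.54.

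The probe letters of 3 transcripts are shown because each signal above is hybridisation to such a stretch of 60 bases. The probes, from the files, lie at chr5:90901598-90901657 (Alb, + strand), chr9:46037921-46037980 (Apoa1, + strand) and chr16:22997333-22999887 (Kng2, - strand) on mm9. The Kng2 span is longer than the probe, so that probe crosses an intron. Capitals mark the one reading frame with no stop codon.
Alb: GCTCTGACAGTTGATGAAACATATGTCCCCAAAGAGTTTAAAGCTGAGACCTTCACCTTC
Apoa1: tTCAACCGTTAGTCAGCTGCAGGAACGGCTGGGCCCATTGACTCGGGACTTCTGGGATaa
Kng2: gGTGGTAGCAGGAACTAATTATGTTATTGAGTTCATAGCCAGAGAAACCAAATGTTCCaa

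The last 8 transcripts encode protease inhibitors, hyaluronan-linked proteins, an adhesion protein and a microsomal enzyme. Serpina1a, an alpha-1-antitrypsin gene, had 5788 in female cDKO RNA, against 849 in female control RNA, and 1289 in male cDKO RNA, against 2032 in male control RNA. Its near-identical paralogue Serpina1d had 2642 in female cDKO RNA, against 306 in female control RNA, and 437 in male cDKO RNA, against 648 in male control RNA. Probes of such paralogues may share transcripts, so these 2 count as uncertain separately. Both lie in the serpin cluster of chromosome 12 that also holds Serpina6, and their female log2 ratios of 2.70 and 3.01 were opposite in sign to that of Serpina6. Cyp2c67, a cytochrome P450 of the endoplasmic reticulum and so the exception that is not a plasma protein, had 854 in female cDKO RNA, against 95.5 in female control RNA, and 128 in male cDKO RNA, against 201 in male control RNA. Its family is likewise of close paralogues.

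The inter-alpha-trypsin inhibitor heavy chains, which bind hyaluronan, differed among themselves. Itih4 had 701 in female cDKO RNA, against 151 in female control RNA, and 161 in male cDKO RNA, against 255 in male control RNA, for ratios of 2.03 and -0.44. Itih1 had ratios of 0.74 and 0.05, and Itih2 had 0.29 and 0.17. Itih3 had 1037 in female cDKO RNA, against 507 in female control RNA, and 266 in male cDKO RNA, against 932 in male control RNA. Its ratios of 0.96 and -1.56 put it just inside 2-fold on the female array and past 2-fold lower on the male array, where no other of the 32 was. Vtn (vitronectin, a cell adhesion protein of plasma and matrix) had 1578 in female cDKO RNA, against 594 in female control RNA, and 953 in male cDKO RNA, against 893 in male control RNA. Over its 10 spots the ratio of Vtn was 1.36 on the female array (SD between spots 0.04) and 0.06 on the male array (0.11).

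**Figure D2:**
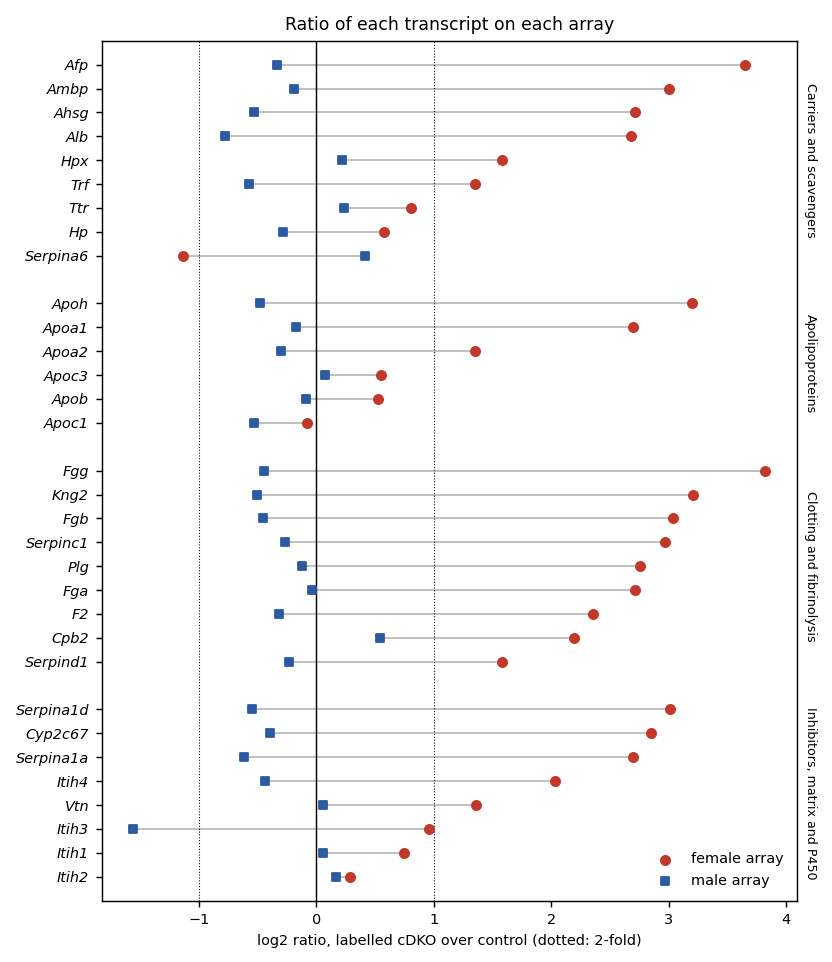
Log2 ratio of labelled cDKO over control for each of the 32 transcripts on the female array (circles) and the male array (squares), joined by a line, with 0 solid and 2-fold dotted. Circles lie right of the 2-fold line for 23 transcripts and left of it for Serpina6, and all squares but that of Itih3 lie between the dotted lines.

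The 2 arrays differed in sign for most of the group. On the male array 24 of the 32 ratios were below 0, where 11606 of 23419 genes were. On the female array 30 were above 0, where 12478 of all genes were. Together, 23 transcripts were below 0 on the male and above 0 on the female array. That joint count is not given for all genes. With median centring in place of loess, the male ratios of Afp, Apoa2, Apoc1 and Trf were above 0 and those of Apoc3 and Itih1 below 0, and 22 transcripts were below 0 on the male and above 0 on the female array. The difference between arrays was not tested, since each array is 1 measurement. The female ratio was at least 4 times the size of the male ratio in 24 transcripts, and in none of those with opposite signs were the sizes within 1.5 times of each other. Across the 32 transcripts, which share arrays and RNAs, the male and female log2 ratios had a Pearson's r of -0.32 and a Spearman's rho of -0.40 (without Serpina6, -0.21 and -0.35 over 31). Over all genes Pearson's r was 0.49. The 32 were chosen on these ratios and all genes were not, so the 2 values are not comparable. For the 23 transcripts below 0 on the male and above 0 on the female array, the higher RNA on each array was in the green channel. This follows from their signs and the dye layout and is no separate result.

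Compared across arrays after quantile alignment of the average intensities, 30 of the 32 transcripts were highest in female cDKO RNA. The 32 were chosen on signals of these arrays, and the same count over all genes is not given, so nothing is read from it. Apoc1 was highest in male control RNA and Serpina6 in female control RNA. The lowest RNA was female control for 17 transcripts, male cDKO for 11, and male control for Apoc3, Serpina6, Ttr and Itih2. The full order of female cDKO over male control over male cDKO over female control was that of 13 transcripts. The median log2 difference of female over male was 2.22 between the cDKO RNAs and -0.34 between the controls. By these values the cDKO RNAs lay farther apart than the controls. Both comparisons cross the dyes, green over red for cDKO and red over green for control. Dye differences of a probe therefore cannot be told apart from differences between the RNAs. Summed over the 32 probes, processed signals were 158358 in female cDKO RNA, against 46981 in female control RNA, and 54276 in male cDKO RNA, against 74506 in male control RNA.

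In the fit over both arrays (limma, Benjamini-Hochberg over all kept probes, threshold 0.05), 2 of the 32 were called higher in cDKO RNA, where 2.19% of all genes were. They were Cpb2 (mean log2 ratio 1.37 ± 1.17, SD, n = 2, adjusted p = 0.00664) and Hpx (0.90 ± 0.97, SD, n = 2, adjusted p = 0.0477). None was called lower, where 2.26% of all genes were. An unadjusted p under 0.05 (limma), in either direction, was held by 22 of the 32 and by 16% of all genes. That count of the 32 ranged from 0 in the deposited table to 25 with an intensity trend, and was 2 with robust eBayes. The 32 were chosen on these ratios, so these p-values are no test of them. Between 0 and 19 of the 32 were called under other settings. With the male array alone, the median ratio of the 32 was -0.30, and with the female array alone 2.28. On processed signals, both cDKO RNAs lay above both control RNAs for 5 of the 32 (Hpx, Ttr, Itih1, Vtn and Cpb2), where 11.8% of all genes did. Both lay below both control RNAs for 0 of the 32, where 7.54% of all genes did.

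Other transcripts of hepatocytes were set beside the 32. Of 45 other plasma protein genes, 32 passed the filter, and of these 19 were at least 2-fold higher in female cDKO RNA and none in male cDKO RNA. Their median log2 ratios were 1.42 on the female and -0.13 on the male array. Without the filter on dim probes the female median was 0.60. Of the 19, 5 were not well above background in female control RNA and so passed the filter through the cDKO RNAs. Among the 23 genes well above background in female control RNA, 14 were at least 2-fold higher in female cDKO RNA, and the female median was 1.42. F5 and Agt were below 0 on the female array, with -0.05 and -0.60. Apof (an apolipoprotein that regulates lipid transfer) had 568 in female cDKO RNA, against 48.4 in female control RNA, and 74.5 in male cDKO RNA, against 95.6 in male control RNA. Serpina3k, a serpin of rodent plasma, was not well above background in female control RNA. It was 7.44-fold higher in female cDKO RNA, an estimate and no bound, with a log2 ratio of -0.25 on the male array. Gc (vitamin D-binding protein), Pzp (an alpha-macroglobulin protease trap) and Kng1 (a kininogen) had female ratios of 2.83, 2.77 and 2.37 and male ratios of -0.28, -0.33 and -0.66. The brightest probes of the list, F10 (clotting factor X) and Rbp4 (the retinol carrier), had ratios of 0.12 and 0.45 on the female and -0.33 and 0.27 on the male array. Habp2, a plasma protease, was the 1 gene of the list called, higher by 1.00 on the female and 0.93 on the male array (adjusted p = 0.00199, limma).

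Of 26 hepatocyte enzymes and transporters, which stay in the cell, 23 passed the filter. Of these, 9 were at least 2-fold higher in female cDKO RNA and none in male cDKO RNA, with medians of 0.97 and -0.07. Without the 5 genes not well above background in female control RNA, 7 of 18 were at least 2-fold higher and the female median was 0.95. Ttpa, a vitamin E carrier, had -0.04 and -0.05. Cps1, the entry enzyme of the urea cycle, had 227 in female cDKO RNA, against 27.5 in female control RNA, and 37.2 in male cDKO RNA, against 52.0 in male control RNA. Fabp1, the liver fatty acid carrier, had 886 in female cDKO RNA, against 256 in female control RNA, and 332 in male cDKO RNA, against 542 in male control RNA. Mat1a, which makes S-adenosylmethionine in liver, was not well above background in female control RNA. It was 3.54-fold higher in female cDKO RNA, an estimate and no bound, with a log2 ratio of -0.27 on the male array. Arg1, the last enzyme of the urea cycle, had ratios of 1.22 and -0.44. The bile acid transporter Slc10a1 gave a bright probe that differed little, with 0.26 and -0.34.

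Of 12 liver transcription factors, 7 were measured on both arrays, with medians of 0.05 on the female and -0.12 on the male array. Hnf4a, which kidney and gut also express, was called higher, with 306 in female cDKO RNA, against 105 in female control RNA, and 304 in male cDKO RNA, against 144 in male control RNA (log2 ratios of 1.37 and 0.76, adjusted p = 0.00199, limma). Cebpa and Nr5a2 had ratios of 0.05 and 0.24 on the female and 0.46 and -0.73 on the male array. Foxa2, Nr1i2 and Onecut1 were not well above background in any RNA.

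**Figure D3:**
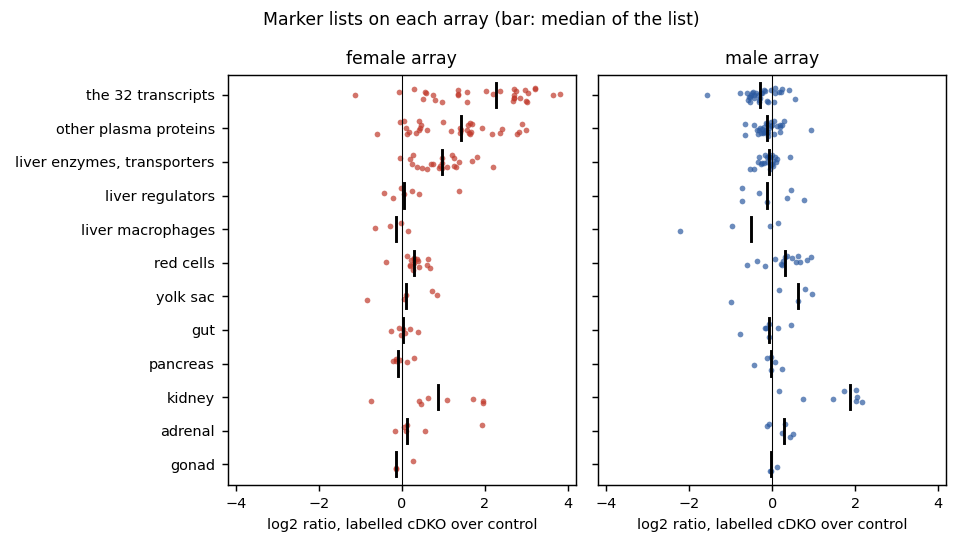
Log2 ratio of labelled cDKO over control on the female array (left) and the male array (right) for each list of marker genes; each point is a gene and each bar a list's median. On the female array the 32 transcripts, the other plasma proteins and the liver enzymes have medians of 2.28, 1.42 and 0.97, while on the male array the same lists sit at -0.30, -0.13 and -0.07.

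Markers of other tissues near the ureter were set beside these values, and their part in the result was not tested. Of 11 kidney markers 8 passed the filter, with medians of 0.86 on the female and 1.87 on the male array, and 7 of them were called higher. The glucose transporter Slc5a2 was not called, with -0.74 on the female and 0.16 on the male array, and the tubule marker Umod was well above background in female control RNA alone. Nephron progenitor factor Six2 was among the kidney markers called higher, with 1.71 on the female and 2.02 on the male array. Kidney signal summed to 2746 in female cDKO RNA, against 1342 in female control RNA, and 5422 in male cDKO RNA, against 1042 in male control RNA. Male cDKO RNA was the highest of the 4 for this sum, and female cDKO RNA was the highest for the sum of the plasma protein transcripts. Among 6 adrenal markers Hsd3b1, a steroid dehydrogenase, was called higher, with 1.94 and 0.32 (adjusted p = 0.0221, limma), and the other 5 had female ratios between -0.16 and 0.55.

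The medians of gut, pancreas and gonad markers lay between -0.13 and 0.03 on the female array and between -0.08 and -0.02 on the male array. Gut Cdh17, pancreatic Pdx1 and Ptf1a, gonadal Amh and yolk sac Trap1a were not well above background in any RNA. Of 5 yolk sac genes measured, Cubn and Dab2, which the kidney also expresses, were called higher and Rhox5 lower, and the medians were 0.10 on the female and 0.63 on the male array. Red cell markers, which blood and fetal liver hold, had medians of 0.29 and 0.32 over 15 genes, with Slc4a1, the anion exchanger of red cells, called higher. Among the macrophage genes of liver, Timd4 was called lower, with 24.5 in female cDKO RNA, against 51.5 in female control RNA, and 61.4 in male cDKO RNA, against 543 in male control RNA. Over the 4 of these 5 genes that passed the filter, medians were -0.15 on the female and -0.50 on the male array. Clec4f, the remaining gene, was well above background in female cDKO RNA alone, with a low signal of 20.6. Smooth muscle markers were lower on both arrays, with medians of -2.48 and -2.34 and 7 of 8 called, and urothelial markers had medians of 0.06 and 0.35.

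**Figure D4:**
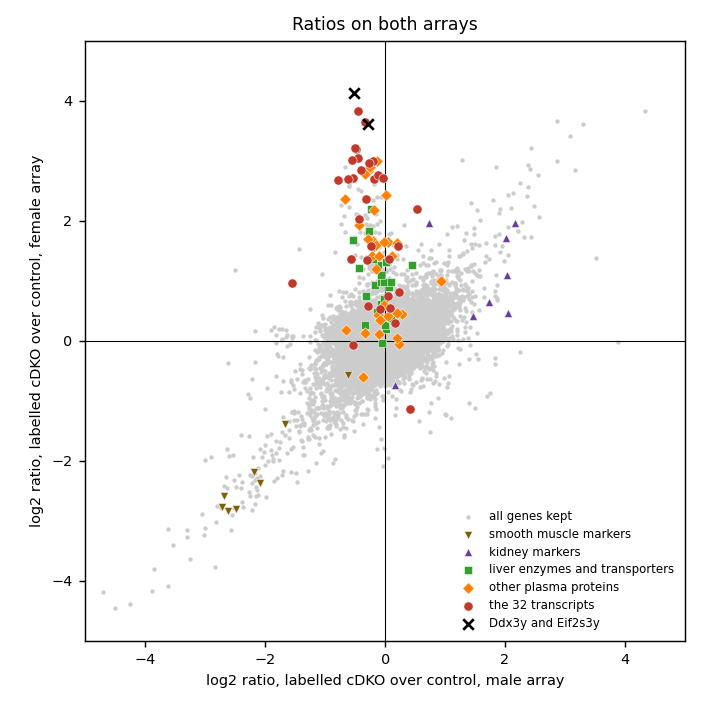
Log2 ratio of labelled cDKO over control on the male array (horizontal) and on the female array (vertical); grey points are all genes kept and coloured symbols the lists named in the key. Smooth muscle markers lie along the diagonal at the lower left. Most kidney markers lie at the right, with Lrp2, Slc34a1 and Slc22a6 below the diagonal. Ddx3y, Eif2s3y and most of the 32 transcripts, Serpina6 and Apoc1 not among them, stand above the centre near 0 on the male axis.

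The pattern of at least 8-fold on the female array and under 1.5-fold on the male array was held by 9 genes of all those kept. These bounds were set with earlier results known, and Apof (7.98-fold on the female array) lay just outside them. Of the 9, 7 belonged to the 32, namely Fgg, Afp, Kng2, Apoh, Fgb, Serpina1d and Ambp, with female folds of 14.2, 12.6, 9.24, 9.19, 8.24, 8.07 and 8.02. The other 2 were the Y-linked Ddx3y and Eif2s3y, at least 8.86-fold and 10.6-fold higher in female cDKO RNA than in female control RNA. Neither was well above background in female control RNA, so both passed the filter only through the cDKO RNAs. Kdm5d and Uty, also Y-linked, did not pass it. No gene had the same pattern in the lower direction. The mirror pattern on the male array was held by 1 gene, S100g (a calcium-binding protein of kidney and gut), with 1659 in male cDKO RNA, against 45.6 in male control RNA, and 1068 in female cDKO RNA, against 1069 in female control RNA. Of the 50 genes with the highest female ratios, 15 were among the 32 and 5 were other plasma protein genes. Some of the latter, such as Serpina3k, passed the filter through the cDKO RNAs. Since the 32 were chosen on these ratios, nothing is read from their share of these counts.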

How the data were processed

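Ureter RNA of 2 arrays was analysed. Spots were read with Agilent Feature Extraction 10.7.3.1, per the file headers and the submitters' processing notes. Per the file headers, the deposited mean and local background intensity, the processed signal intensity (background-subtracted, dye-normalized), the log10 ratio of red over green and the 0 or 1 flags were used. A value table that the authors deposited holds a score. Compared with the scanner values, it was the signed fold of cDKO over control processed signals once floored at 26.9 (male array) and 20.4 (female array), within 0.01 log2 for 100% of values, and each column had a median of 1.

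Here, normexp (offset 50) was applied to mean intensities, followed by loess within arrays (limma 3.58.1, R 4.3.3), giving weight 0 to control spots and to the 272 and 226 outlier spots of the male and female array. Spots of a probe were averaged. Of 39429 probes, 29339 were kept, those well above background in both cDKO RNAs or in both control RNAs. The brightest kept probe stood for a gene. For 26412 probes the symbol came by accession from RefSeq (GRCm38.p6), and for 13017 it was the file's own. The mean log2 ratio was tested against 0 (lmFit, eBayes, two-sided, 1 residual and 13.9 prior degrees of freedom). The p-values measure only the spread between these arrays, which may be technical, and the number of arrays limits the precision. The fit was tested on simulated data. Folds against RNA not well above background are bounds from the lowest signal well above background. They were taken per channel after loess and Aquantile and are open to dye bias. Where the RNA's own value exceeded that lowest signal, as for Serpina3k and Mat1a, the fold is the ratio itself and no bound.

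Members, lists, patterns and settings were chosen with earlier results of these data known. Named were all members, in each other list up to 4 genes that differed most between arrays and up to 3 of the brightest, genes with the members' pattern, and label checks. Habp2, other genes called and markers at background were named after their values were seen. A gene that the rule takes is not reported here. Alternatives were processed signals, offset 0, median centring, no filter, the deposited table, mean over probes, an intensity trend, robust eBayes and each array alone.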

Additional observations from a re-analysis of the deposited data

Results flagged for a closer look

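Of the 32 transcripts, 23 had a ratio below 0 on the male array and above 0 on the female array. Some of these male ratios were close to 0, such as -0.04 for Fga and -0.09 for Apob. With median centring in place of loess, 6 of the 32 male signs turned and the count was 22. The female ratios of the group had a median of 2.28 and the male ratios a median of -0.30 on the log2 scale. The difference was not tested, since there was 1 array of each sex, and sex, dye orientation and replicate number cannot be told apart.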

How the results depend on the processing

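On the female array, 30 of the 32 ratios stayed above 0 under each of the 5 settings that changed the ratios. On the male array 1 transcript, in place of 0, was at least 2-fold higher on processed signals and in the deposited table. That was Serpina6, at 1.02 in place of 0.41. Apob on the female array was 1.55 over its probes in place of 0.52, and Trf on the male array 0.02 with median centring in place of -0.57. Median centring turned the male sign of 6 transcripts.

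Genes called numbered 1042, and 345 on processed signals, 320 with median centring, 1598 with an intensity trend and 0 in the deposited table (limma, 2436 at an unadjusted p under 0.05). The share of calls that were higher was 49.1%, and 39.1% on processed signals and 58.5% with the trend. Of the 32, 2 were called, and 15 with median centring, 19 with the trend and 1 with offset 0. On processed signals, without a filter, in the deposited table and with robust eBayes, 0 were called. At an unadjusted p under 0.05 (limma), these settings in turn gave 2, 11, 0 and 2 of the 32. Of all genes (23419 with the filter), 2824, 4242, 2436 and 3743 had such a p at these settings, and 1379 with median centring. Other plasma protein genes called numbered 1, and 5 with median centring, 15 with the trend and 0 in the deposited table (3 unadjusted), and without a filter their female median was 0.60 in place of 1.42. Keeping to genes well above background in female control RNA, added after seeing the data, gave 1.42, and 0.95 in place of 0.97 for liver enzymes. Liver enzymes called numbered 1, and 4 with the trend and 0 on processed signals, with median centring, without a filter and in the deposited table (3, 4, 5 and 1 unadjusted). The causes were not tested, except that no filter adds dim probes.

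Medians of the mean ratio of both arrays were 0.98 for the 32, 0.70 for other plasma proteins and 0.45 for liver enzymes. Leaving out 1 array gave -0.30 to 2.28, -0.13 to 1.42 and -0.07 to 0.97, so each direction rests on the female array. No paired analysis was possible because each array already holds a pair and there is 1 group of 2 arrays. Probes near background, such as the second Apob probe, limit what can be said of dim transcripts.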
